A study of Mus musculus with 4 samples.

Results

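The ADAM, ADAMTS, ADAMTSL and TIMP genes encode extracellular proteases, protease-like matrix proteins and protease inhibitors, and they were followed here in fibroblasts taken out of mouse mammary tumours. Members were the protein-coding genes whose GENCODE M21 symbol is Adam, Adamts, Adamtsl or Timp followed by a number, with a further letter allowed after Adam. Of 22456 genes in the deposited table, 47 met this rule: 19 ADAM, 19 ADAMTS, 5 ADAMTSL and 4 TIMP genes. The other 14 annotated protein-coding genes with such symbols, all of the ADAM family, were not among these 22456 genes and so had no values. Genes were tested where their 4 libraries averaged log2 of 10 or more, and 38 members reached that level.

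The fibroblasts came from tumours that 4T1 cells, a transplantable mammary carcinoma line, had formed in the fat pad of Balb/c mice by 8 days after injection. In the GSK group (2 libraries) the cancer cells had been kept for 5 days in 5 µM of the compound GSK269962A before injection, and in the DMSO group (2 libraries) they had been kept in the solvent. The compound was therefore given to the cancer cells and not to the mice, and both groups are host cells next to pre-treated 4T1 cells. Fibroblasts were the cells left after magnetic depletion of cells bearing CD45, CD31, CD326 or human CD2, so the fraction is defined by what was removed. The sources used here give neither the animals' age nor the number of animals behind a library, and p-values measure the spread between these libraries only.

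ADAM proteins are membrane-anchored metalloproteases that cut other membrane proteins close to the cell surface and release growth factors, cytokines and receptor ectodomains. ADAMTS proteins are their secreted relatives, which carry thrombospondin repeats and cut matrix proteoglycans, procollagens and other matrix proteins. ADAMTSL proteins share the repeats but lack the protease domain, and TIMPs are small secreted proteins that block matrix metalloproteinases and, to differing extents, ADAM and ADAMTS enzymes. Fibroblasts are a main source of these proteins in connective tissue and in tumour stroma.

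The deposited values are log2 expression as normalised by the authors. They hold no read counts, and the depth of the libraries is therefore unknown. The fraction carried fibroblast genes: the summed level of 10 fibroblast markers was 21.58 and 21.67 in the GSK libraries and 21.71 and 21.69 in the DMSO libraries. Markers of the depleted cells had lower summed levels: 8.91 and 8.71 in GSK and 9.11 and 9.05 in DMSO for 6 epithelial and 4T1 genes, 8.07 and 8.18 in GSK and 8.17 and 8.24 in DMSO for 5 endothelial genes, and 11.83 and 11.19 in GSK and 10.74 and 10.51 in DMSO for 4 leukocyte genes. Epcam stood at 0.32, Pecam1 at 3.30 to 3.34 and Ptprc at 3.77 to 3.91, but single markers lay well above these. Cd53 had 11.81 and 11.15 in GSK and 10.70 and 10.46 in DMSO. The leukocyte genes Laptm5, at 4.47 to 4.58, and Coro1a, at 3.93 to 4.01, were low like Ptprc. Krt19 had 8.79 and 8.56 in GSK and 9.0 and 8.93 in DMSO (adjusted p = 0.157), with the other epithelial genes at 4.41 or below. The T cell gene Cd3e stood at 8.40 to 9.0, but Cd3d at 0.01 to 0.03 and Cd4 at 2.67 to 2.72. The endothelial gene Tek stood at 7.52 to 7.73 and the other endothelial genes at 5.24 or below. The summed level of 8 pericyte and smooth muscle markers was 15.62 and 15.70 in GSK and 15.32 and 15.61 in DMSO. Of these 8, none passed an adjusted p of 0.05. At an unadjusted p under 0.05, 4 were higher and 1 lower in GSK, beside 7.88% and 8.13% of all genes tested.

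The comparison of GSK with DMSO asks whether the fibroblasts' protease and inhibitor genes differ when the cancer cells had been pre-treated. No member passed an adjusted p of 0.05 in limma, where 0.282% of the 14548 tested genes did (41 genes). The nearest was Adamts1, a protease of large proteoglycans, which was 1.57-fold lower in GSK (adjusted p = 0.0543). Along with it, Adamts15, Adamts5, Timp1, Adamtsl1, Adamtsl4, Adamtsl3 and Adam33 were lower in GSK at an unadjusted p under 0.05, which makes 8 members, beside 8.13% of all genes tested. Adamts7, Adamts12, Adam19 and Adamts6, 4 members, were higher, beside 7.88% of all genes. These 12 of 38 tested members are 31.6%, beside 16% of all genes tested. Where the mean reached log2 of 50 the figures were 12 of 32 members (37.5%) and 17.4% of all genes. The median change over the 38 members was -0.04 (log2), beside 0.00 over all genes, and 26 members had a negative and 12 a positive change. A change of at least 0.25 in size was found in 9 members (23.7%) and in 4.61% of all genes. The size count was not repeated for genes of like level, and changes of low genes may be understated in these values. The fit took the libraries as unpaired. With replicate numbers as a block, 15 members and 1374 genes passed an adjusted p of 0.05. The labels do not say whether these numbers mark pairs. Fewer cells of a type and less RNA per cell cannot be told apart in such bulk samples.

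**Figure D1:**
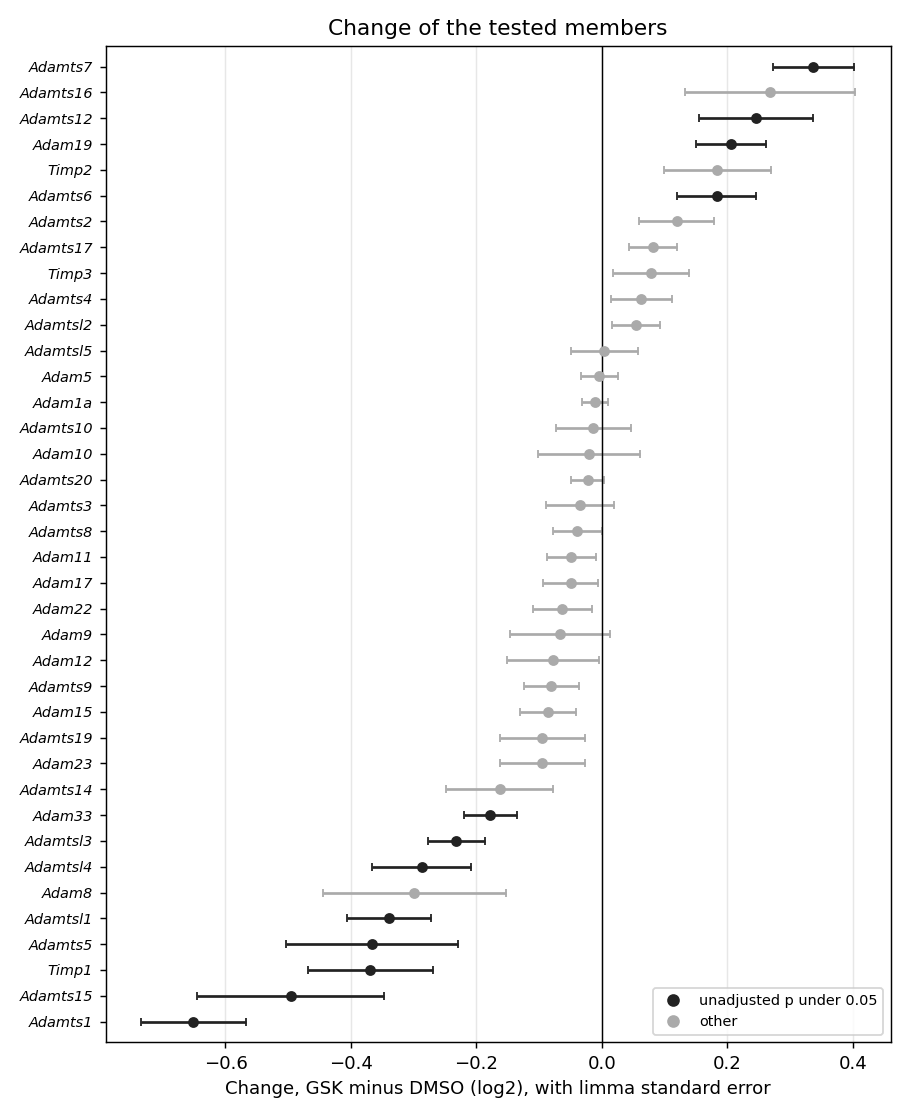
Change of the 38 tested members between GSK and DMSO fibroblasts (log2, GSK minus DMSO), with limma's standard error as bars. Black points mark the 12 members with an unadjusted p under 0.05, and Adamts1 at -0.65 and Adamts7 at 0.34 lie at the ends.

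Levels of different genes were set side by side after dividing by the length of their annotated exons, as log2 level per kb. Timp1 stood at the top with 15.01, followed by Timp2 with 11.66, Adamts2 with 11.23, Timp3 with 11.17 and Adamts4 with 10.66. Adam19 (10.56), Adamts1 (10.42) and Adam9 (10.40) came next. With the longest protein-coding transcript as length, Timp3 moved to the second place with 11.96, ahead of Timp2 with 11.73, and the other 6 kept their order. At the low end, 9 members had means between -1.0 and 3.21 and were not tested: Adam4, Adam32, Adam30, Adam21, Adam1b, Adam28, Adamts13, Adamts18 and Timp4. Most of these are known from other tissues, such as Adamts13, the liver-made protease of von Willebrand factor, Adam28, a lymphocyte and epididymis gene, and the germ cell genes Adam4, Adam30 and Adam32.

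**Figure D2:**
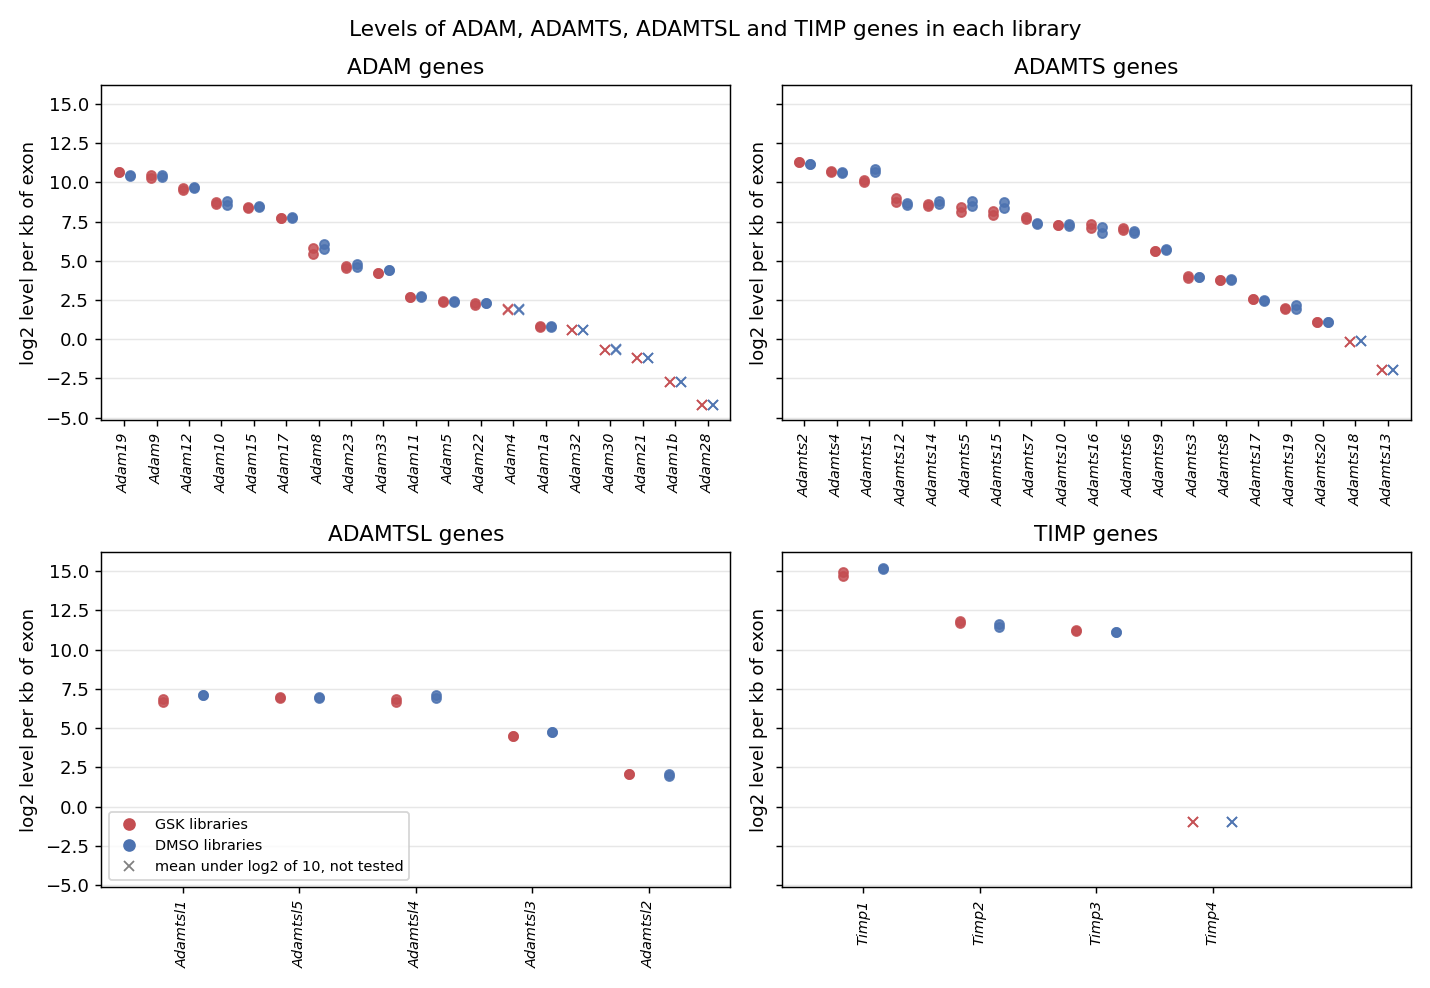
Log2 level per kb of exon of the 47 members in each library, by family, with GSK libraries left of DMSO libraries. Timp1 lies at 14.96 and 14.70 in GSK and at 15.24 and 15.16 in DMSO, above every other member, and crosses mark the 9 members that were not tested.

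The ADAMTS enzymes that cleave versican and other hyaluronan-binding proteoglycans held the largest differences. Adamts1 (ENSMUSG00000022893, GRCm38 chromosome 16, 85793827 to 85803113, minus strand) had 12.56 and 12.43 in the GSK libraries and 13.25 and 13.04 in the DMSO libraries. Both GSK libraries lay below both DMSO libraries, and the change was -0.65 ± 0.08 (limma SE, adjusted p = 0.0543). Leaving out single libraries moved it between -0.76 and -0.55, and without DMSO library 2 it passed the threshold (adjusted p = 0.0193). It also passed with the libraries shifted to the same median (adjusted p = 0.0464) and with a robust variance prior (adjusted p = 0.0434), and over all alternatives its adjusted p ran from 0.000171 to 0.222. Adamts15, a versican- and aggrecan-cleaving enzyme on chromosome 9 (30899155 to 30922452), had 11.56 and 11.29 in GSK and 12.13 and 11.71 in DMSO. The groups did not overlap, but GSK library 1 and DMSO library 2 lay close, and the change of -0.50 ± 0.15 had an adjusted p of 0.188. It was -0.29 without DMSO library 1 and -0.71 without DMSO library 2, where the adjusted p was 0.0437.

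Adamts5, the main aggrecan-degrading enzyme of mouse cartilage, had 11.86 and 11.57 in GSK and 12.26 and 11.90 in DMSO. GSK library 1 and DMSO library 2 nearly met, and the change was -0.37 ± 0.14 (adjusted p = 0.268), with -0.19 without DMSO library 1 and -0.22 without GSK library 2. Adamts4, another aggrecanase, went the other way in sign, with 12.97 and 12.94 in GSK and 12.88 and 12.91 in DMSO (change 0.06 ± 0.05, adjusted p = 0.577). Adamts9 was at -0.08, Adamts8 at -0.04 and Adamts20 at -0.02. Of the 7 members of this class, all tested, 6 had a negative change and 3 an unadjusted p under 0.05. All 3 were lower in GSK, beside 8.13% of all genes tested.

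The make-up of the class differed between the groups. Adamts1 contributed 32.5% and 32.0% of the summed level per kb in the GSK libraries and 42.2% and 40.5% in the DMSO libraries. Adamts4 contributed 47.6% and 50% in GSK and 35.8% and 40.6% in DMSO. Adamts4 was thus the most abundant transcript of the class in both GSK libraries, while Adamts1 led in DMSO library 1 and was level with Adamts4 in DMSO library 2. With the longest coding transcript as length, Adamts4 led in GSK with 45.4% and 47.8% and in DMSO library 2 with 38.8%, where Adamts1 had 38.3%. The summed level of the class was 11.78 and 11.67 in GSK and 12.09 and 11.94 in DMSO, so the groups did not overlap. These shares were not tested, and since they add up to the whole, a lower share of Adamts1 raises the others.

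Some members of this class lie side by side in the genome, as do members of other classes, such as Adam32 and Adam9, 806 bases apart. The part of position in their changes was not tested. Adamts1 and Adamts5 are neighbours on the minus strand of chromosome 16 with 53059 bases between them, and both were lower in GSK, at -0.65 and -0.37. Adamts15 and Adamts8 are neighbours on chromosome 9, on opposite strands with 20109 bases between them, and were at -0.50 and -0.04. Adamts8 had 6.0 and 5.96 in GSK and 6.01 and 6.03 in DMSO.

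The proteoglycan substrates of these enzymes were measured too. Vcan, which encodes versican, had 13.35 and 13.46 in GSK and 13.78 and 13.61 in DMSO, a change of -0.29 ± 0.08 (adjusted p = 0.155). Bcan, which encodes the brain proteoglycan brevican, was near the limit of the filter at 3.50 and 3.52 in GSK and 3.56 and 3.57 in DMSO (change -0.05, adjusted p = 0.272). Acan, which encodes aggrecan, stood at 1.46 to 1.47 and was not tested. None of the 2 tested genes of this list of 5 passed the adjusted threshold. At an unadjusted p under 0.05 both were lower in GSK, beside 8.13% of all genes tested.

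Timp1, a secreted inhibitor of matrix metalloproteinases and of ADAM10, lies on chromosome X (20870166 to 20874735) inside the synapsin gene Syn1, on the opposite strand. It had 14.78 and 14.53 in GSK and 15.07 and 14.99 in DMSO. Both GSK libraries lay below both DMSO libraries, and the change was -0.37 ± 0.10 (1.29-fold lower in GSK, adjusted p = 0.155). It was -0.24 without GSK library 2. Its host Syn1, at 7.92 and 7.95 in GSK and 7.80 and 8.01 in DMSO, overlapped between groups.

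The other TIMPs had the opposite sign. Timp2, which also takes part in the activation of the gelatinase MMP2, had 13.66 and 13.77 in GSK and 13.42 and 13.63 in DMSO (change 0.18 ± 0.09, adjusted p = 0.357), with the lowest value in DMSO library 1. It was 0.08 without DMSO library 1 and 0.29 without DMSO library 2. Timp3, a matrix-bound TIMP that inhibits ADAM17 and aggrecanases, had 14.28 and 14.20 in GSK and 14.16 and 14.15 in DMSO (change 0.08 ± 0.06, adjusted p = 0.577). Its exons share 1733 bases with Syn3 on the other strand, at a mean of 6.44, and whether counting used strand is not given in the sources used here. Timp4, in the same arrangement within Syn2, stood at 1.58 to 1.59 and was not tested.

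Timp1 made up 84.7% and 81.9% of the summed TIMP level per kb in GSK and 88.4% and 86.9% in DMSO. The share of Timp2 was 8.84% and 11% in GSK and 6.45% and 7.76% in DMSO, and that of Timp3 was 6.49% and 7.10% in GSK and 5.16% and 5.32% in DMSO. The groups did not overlap in any of these shares, which were not tested. The shares of a class add up to the whole, so a lower share of Timp1 raises the others. They are therefore not separate observations.

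**Figure D3:**
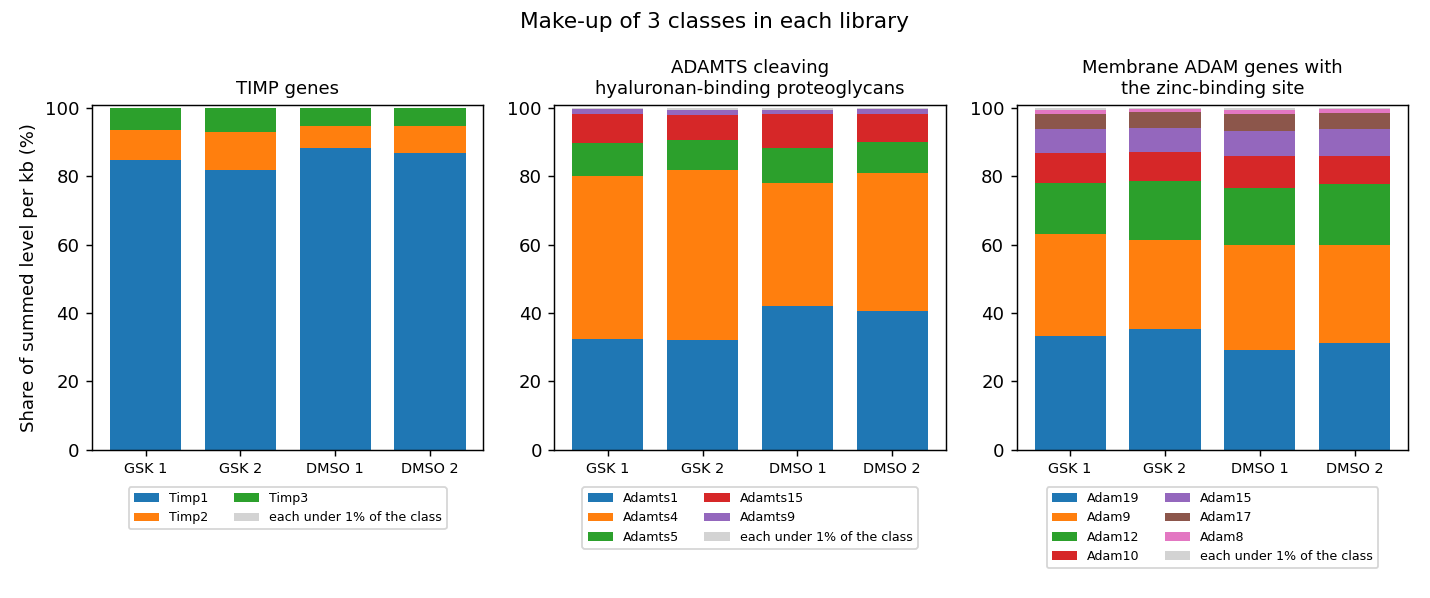
Share of each gene (percent, stacked) in the summed level per kb of 3 classes, in GSK libraries 1 and 2 and DMSO libraries 1 and 2. Adamts1 takes 32.0 to 32.5% of its class in GSK and 40.5 to 42.2% in DMSO, and Adam19 takes 33.3 and 35.2% of its class in GSK and 29.2 and 31.1% in DMSO.

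The start sites of Adamts1 and Timp1, the proteoglycan protease and the inhibitor with the largest changes, are shown from RefSeq's GRCm38.p6 table, which held promoters of 23 of the 38 tested members. Each stretch runs from 250 bases before to 50 bases after the start. Capitals mark matches, on either strand, to 6 motifs: AP-1 (TGANTCA), the cAMP response element (TGACGTCA), RUNX (TGTGGT), TEAD (GGAATG), NF-kB and the TATA box (TATAAA). The Adamts1 stretch is chr16:85803064-85803363 on the minus strand and the Timp1 stretch is chrX:20869916-20870215 on the plus strand.
Adamts1: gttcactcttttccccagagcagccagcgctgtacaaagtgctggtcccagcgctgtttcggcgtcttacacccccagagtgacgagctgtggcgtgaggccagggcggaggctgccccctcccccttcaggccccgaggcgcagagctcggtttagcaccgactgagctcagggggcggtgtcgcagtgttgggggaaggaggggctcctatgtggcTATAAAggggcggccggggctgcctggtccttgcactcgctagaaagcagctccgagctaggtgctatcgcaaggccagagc
Timp1: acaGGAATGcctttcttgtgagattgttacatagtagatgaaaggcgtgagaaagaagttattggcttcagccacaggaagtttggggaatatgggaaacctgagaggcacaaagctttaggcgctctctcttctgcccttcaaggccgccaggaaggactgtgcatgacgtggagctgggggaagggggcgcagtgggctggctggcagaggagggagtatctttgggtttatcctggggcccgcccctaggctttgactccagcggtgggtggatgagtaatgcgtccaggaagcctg
Adamts1 held a TATA box that begins at position -32 from the start, a motif found in 2 of the 23 members with a promoter and in 13.6% of 32851 promoters. Timp1 held 1 TEAD match at position -247, found in 3 of the 23 and in 14.7% of all promoters. An exact AP-1 match was found in 1 of the 23, Adam19, and in 7.81% of all promoters. Near matches were not sought, such as tgagtaa in the Timp1 stretch, which differs from TGANTCA by a letter. The promoter of Adamtsl3 was also looked up, held none of these motifs and is not shown. Such matches describe letters and not binding.

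Adamts7 and Adamts12 encode enzymes known to cleave cartilage oligomeric matrix protein (COMP). Their changes were positive, and neither passed the adjusted threshold. Adamts7 (chromosome 9, 90163069 to 90208071) had 10.30 and 10.44 in GSK and 9.99 and 10.08 in DMSO, with no overlap and a change of 0.34 ± 0.06 (1.26-fold higher, adjusted p = 0.0858). Adamts12 (chromosome 15, 11064790 to 11349231) had 12.19 and 12.45 in GSK and 12.02 and 12.13 in DMSO, a change of 0.25 ± 0.09 (adjusted p = 0.264). GSK library 1 lay just above DMSO library 2, and the Adamts12 change was 0.12 without GSK library 2 and 0.38 without GSK library 1. Comp itself stood at 2.50 to 2.52 and was not tested.

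The procollagen N-proteinases, which trim the amino end of fibrillar procollagens, showed no member at an unadjusted p under 0.05. Adamts2, the principal one for type I collagen, had 14.51 in each GSK library and 14.41 and 14.38 in DMSO (change 0.12 ± 0.06, adjusted p = 0.392). Adamts14 was at -0.16 and Adamts3 at -0.04, and their groups overlapped. Adamts2 held 85.7% and 87.0% of the class per kb in GSK and 83.2% and 84.7% in DMSO. Of the 6 genes listed with procollagen processing none passed the adjusted threshold, and Col1a1, at 20.46 and 20.58 in GSK and 20.48 and 20.52 in DMSO, overlapped between groups, as did Bmp1, a procollagen C-proteinase (15.29 and 15.21 in GSK, 15.19 and 15.20 in DMSO).

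Adamts6 and Adamts10 encode closely related enzymes tied to fibrillin microfibrils. Adamts6 had 9.90 and 10.03 in GSK and 9.73 and 9.84 in DMSO, a change of 0.18 ± 0.06 (adjusted p = 0.240), and 0.12 without GSK library 2. Adamts10 had 10.29 and 10.31 in GSK and 10.24 and 10.39 in DMSO, so DMSO spanned both GSK values (change -0.01 ± 0.06, adjusted p = 0.932). The remaining tested ADAMTS genes were Adamts16 at 0.27 ± 0.14 (adjusted p = 0.392), Adamts17 at 0.08 and Adamts19 at -0.10. Adamts16 had 9.90 and 10.11 in GSK and 9.53 and 9.94 in DMSO, and its change was 0.07 without DMSO library 1, which lay below the other libraries.

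Of the 5 ADAMTSL genes, which encode matrix proteins without protease activity, 3 were lower in GSK at an unadjusted p under 0.05. The share over all genes tested was 8.13%. Adamtsl1, punctin, had 10.37 and 10.56 in GSK and 10.80 and 10.81 in DMSO (change -0.34 ± 0.07, 1.27-fold lower in GSK, adjusted p = 0.0910). Adamtsl3 had 7.42 and 7.47 in GSK and 7.68 and 7.67 in DMSO, a change of -0.23 ± 0.05 (adjusted p = 0.0925) that stayed between -0.26 and -0.20 with any library left out. Adamtsl4, a fibrillin-binding protein whose loss displaces the eye lens, had 8.90 and 8.76 in GSK and 9.21 and 9.02 in DMSO (change -0.29 ± 0.08, adjusted p = 0.162). Over the 5 ADAMTSL genes the groups did not overlap, with GSK lower, in 3, beside 24.5% of all genes. These are the same 3 genes, so this is not a separate observation. Adamtsl5 was at 0.00 and Adamtsl2, which is mutated in geleophysic dysplasia in humans, at 0.05, and the groups of both overlapped. The summed ADAMTSL level per kb was 8.54 and 8.52 in GSK and 8.77 and 8.70 in DMSO.

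Among 9 microfibril partners of these proteins none passed the adjusted threshold. At an unadjusted p under 0.05, 1 of them, Ltbp1, a carrier of latent TGF-beta, was lower in GSK, beside 8.13% of all genes tested. Ltbp1 had 10.14 and 10.53 in GSK and 10.56 and 10.77 in DMSO (change -0.33 ± 0.13, adjusted p = 0.286). Fbn1, fibrillin 1, had 16.31 and 16.30 in GSK and 16.27 and 16.32 in DMSO.

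**Figure D4:**
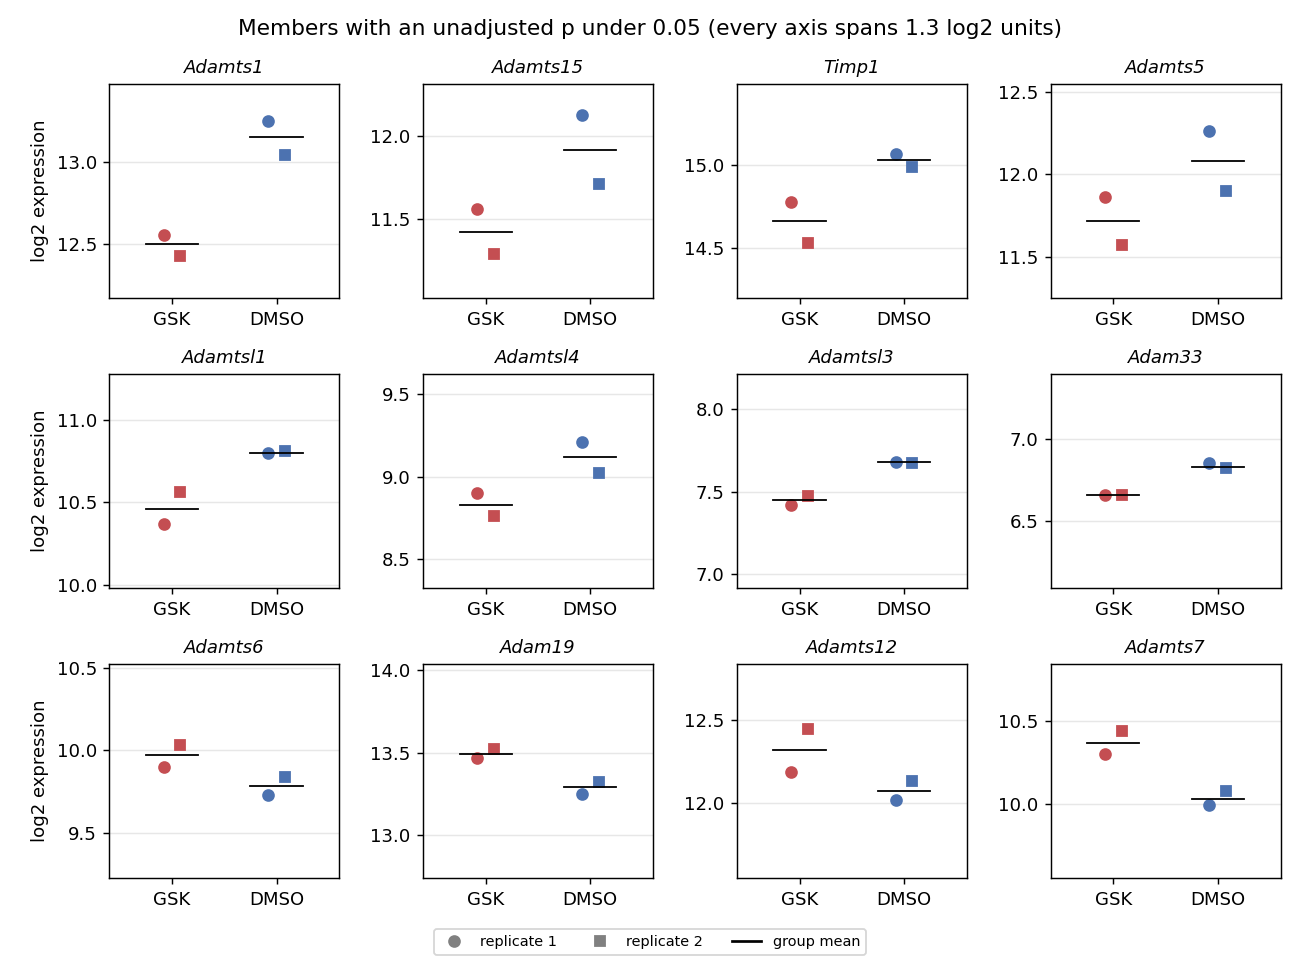
Log2 expression of the 12 members with an unadjusted p under 0.05 in each library, GSK left of DMSO, with lines at the group means and every axis spanning 1.3 log2 units. The groups do not overlap in any of the 12, and in Adamts5 and Adamts12 the nearest libraries of the groups almost meet.

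The membrane ADAM enzymes with a working zinc-binding site had a summed level per kb of 12.22 and 12.20 (log2) in GSK and 12.20 and 12.18 in DMSO. Adam10, the sheddase of Notch receptors and cadherins, had 11.03 and 10.89 in GSK and 11.08 and 10.88 in DMSO (change -0.02 ± 0.08, adjusted p = 0.925). Adam17, which releases TNF and ligands of the epidermal growth factor receptor, had 10.56 and 10.58 in GSK and 10.65 and 10.58 in DMSO (change -0.05 ± 0.04, adjusted p = 0.625). For Adam10 the DMSO libraries lay outside both GSK libraries, and for Adam17 the second libraries of the groups nearly met.

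Adam19, meltrin beta, a sheddase of neuregulins, was the member of this class that was higher in GSK at an unadjusted p under 0.05. It had 13.47 and 13.52 in GSK and 13.25 and 13.32 in DMSO, with no overlap (change 0.21 ± 0.06, adjusted p = 0.161). Its exons share 587 bases with the antisense gene Gm16033, at a mean of 5.90. Adam33, a gene linked to asthma in humans, had 6.66 in each GSK library and 6.85 and 6.82 in DMSO (change -0.18 ± 0.04, adjusted p = 0.131). Adam12, a marker of activated mesenchymal cells, had 12.89 and 13.07 in GSK and 13.01 and 13.10 in DMSO (change -0.08 ± 0.07, adjusted p = 0.650). Adam9 was at -0.07 and Adam15 at -0.09. Exons of Adam15 (1263 bases), Adam17 (311), Adamts4 (171), Adamts7 (122), Adamts8 (489) and Adamts9 (1381) also overlap a gene of the other strand, and their values are uncertain to that extent.

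Adam8, an enzyme best known from myeloid cells, had 8.01 and 7.64 in GSK and 8.29 and 7.96 in DMSO, so the groups overlapped (change -0.30 ± 0.15, adjusted p = 0.380). Of 6 macrophage and monocyte markers, Adgre1 and C1qa were below the filter. The summed level of all 6 was 8.73 and 8.59 in GSK and 8.81 and 8.71 in DMSO. Most of it came from Csf1r, at 8.30 and 8.14 in GSK and 8.39 and 8.28 in DMSO. The 3 neutrophil markers in the table stood at 1.19 or below. The part of such cells in the Adam8 values was not tested.

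The ADAMs without a working zinc-binding site, which act in adhesion of neural and other cells, had no member at an unadjusted p under 0.05: Adam23 was at -0.10, Adam22 at -0.06 and Adam11 at -0.05. Of 7 testis-type ADAM genes, Adam5 and Adam1a were tested, at means of 4.05 and 3.72, with changes of 0.00 and -0.01. The value of Adam1a is uncertain, since its transcripts match Gm42878 over 4783 bases, Mapkapk5, at a mean of 9.38, over 1811 bases and Adam1b over 1205 bases.

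Partners that carry ADAM10 and ADAM17 to the surface or direct them were measured for 8 of 9 listed genes. None passed the adjusted threshold. At an unadjusted p under 0.05, 3 were higher in GSK, beside 7.88% of all genes tested. Rhbdf2, iRhom2, which escorts ADAM17 out of the endoplasmic reticulum, had 10.46 and 10.44 in GSK and 10.12 and 10.25 in DMSO (change 0.26 ± 0.05, adjusted p = 0.101). Tspan14, a tetraspanin partner of ADAM10, was at 0.14 ± 0.05 (adjusted p = 0.223). The partner Rhbdf1, iRhom1, was at -0.05.

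Among 4 proprotein convertases, which cut the inhibitory propeptide of ADAM and ADAMTS proteins, none passed. Pcsk6 had 8.54 and 8.74 in GSK and 9.06 and 9.08 in DMSO (change -0.43 ± 0.07, adjusted p = 0.0654), and Furin was at 0.15 ± 0.06 (adjusted p = 0.336). Of 3 other inhibitors none passed, with A2m, a broad protease trap, at 0.30 ± 0.13 (adjusted p = 0.325) and Reck, a membrane-bound inhibitor, at -0.04.

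Of 21 substrates shed by these enzymes 18 were tested and none passed (median change -0.06). At an unadjusted p under 0.05, 2 were higher and 5 lower in GSK, beside 7.88% and 8.13% of all genes tested. Ereg, epiregulin, had 8.68 and 8.66 in GSK and 9.40 and 9.04 in DMSO (change -0.55 ± 0.11, adjusted p = 0.0923). Cd44, the hyaluronan receptor, had 12.59 and 12.51 in GSK and 13.04 and 12.83 in DMSO (change -0.38 ± 0.08, adjusted p = 0.101).

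The matrix metalloproteinases that TIMPs inhibit were the other main list. Of 18 listed, 16 were tested (median change 0.11). Mmp10 and Mmp13 were higher in GSK past the adjusted threshold, beside 0.151% of all genes tested. At an unadjusted p under 0.05, 7 were higher and none lower, beside 7.88% and 8.13% of all genes tested. Mmp13, a collagenase, had 13.65 and 14.23 in GSK and 11.87 and 12.33 in DMSO (change 1.83 ± 0.22, adjusted p = 0.046), and Mmp10, a stromelysin, had 11.93 and 11.52 in GSK and 10.29 and 10.48 in DMSO (change 1.34 ± 0.13, adjusted p = 0.033). Both calls were lost without DMSO library 1, with no filter, without a trend in the variance prior and with a robust prior, and that of Mmp13 also with a filter at log2 of 50, after quantile normalisation and with a pseudocount of 10. In the same libraries Timp1 was 0.37 lower in GSK, Timp2 0.18 higher and Timp3 0.08 higher (log2), none past the threshold.

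Members were also counted by 2 opposite orders of the libraries. Adamts1, Adamts15, Adamts5, Adamtsl4 and Timp1 ran in 1 order from low to high: GSK 2, GSK 1, DMSO 2, DMSO 1. Timp2, Adam19, Adamts12, Adamts17, Adamts6 and Adamts7 ran in exactly the opposite order. The first order held for 13.2% of the tested members and 9.18% of all genes, and the opposite one for 15.8% of members and 8.87% of all genes. Both orders have GSK library 2 and DMSO library 1 at the ends by definition. No other order was counted, and these shares were not tested. Over all tested members the groups did not overlap in 21 of 38 (55.3%), beside 48.6% of all genes, which is near the background. In 9 of them GSK was higher and in 12 lower, beside 24.1% and 24.5% of all genes.

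Early-response genes can be induced by tissue digestion. A list of 14 of them was added after earlier results were known, and all 14 were measured. Its summed level was 17.79 and 17.55 in GSK and 18.08 and 17.97 in DMSO, in the library order of Adamts1. Of the 14, Hspa1a and Hspa1b were lower past the adjusted threshold, and the other 12 did not pass it. The near-identical transcripts of Hspa1a and Hspa1b make their values uncertain. At an unadjusted p under 0.05, 11 of the 14 were lower, beside 8.13% of all genes tested (median change of the list -0.35). Atf3, a stress-induced transcription factor, had 11.21 and 10.93 in GSK and 11.81 and 11.56 in DMSO (change -0.61 ± 0.11, adjusted p = 0.0831), and Ier2 was at 0.00. The part of these genes in the values of Adamts1, Adamts5, Adamts15 and Timp1 was not tested, nor was that of the pericyte and smooth muscle genes given above.

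**Figure D5:**
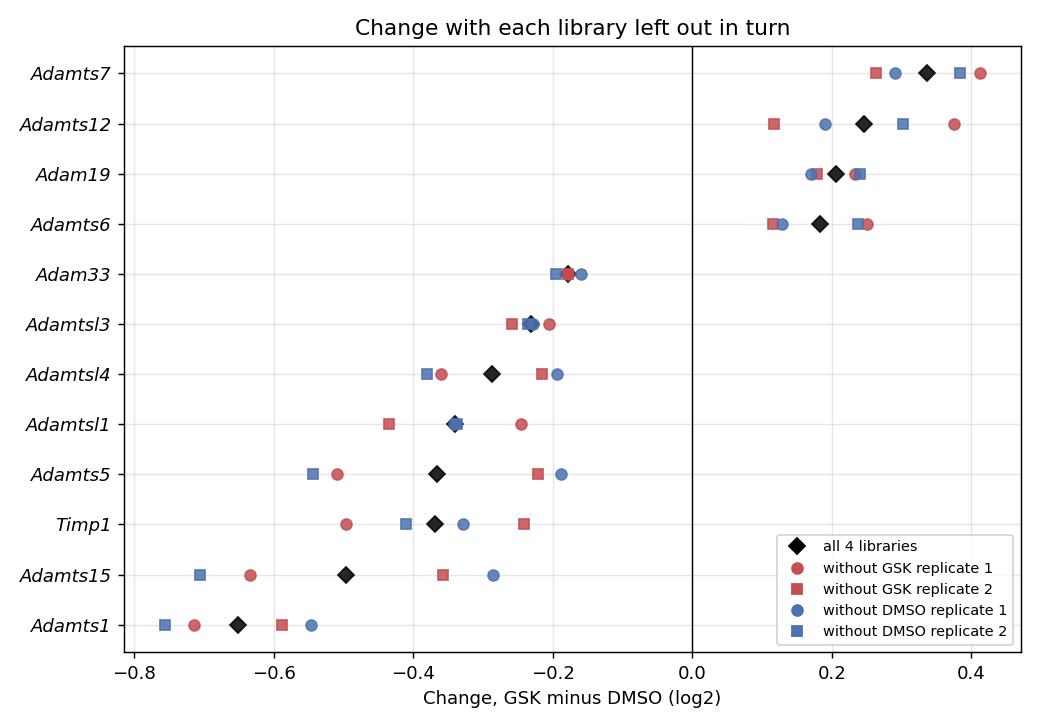
Change (log2, GSK minus DMSO) of the 12 members with an unadjusted p under 0.05, with all 4 libraries and with each library left out in turn. Every sign stays the same, as it must where groups do not overlap. Adamts15 ranges from -0.71 to -0.29 and Adamts5 from -0.54 to -0.19.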

How the data were processed

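RNA was sequenced from the unlabelled cell fraction of tumours, with 2 GSK and 2 DMSO libraries grouped by title. The authors deposited 1 table of normalised log2 values for 22456 Ensembl genes, with no unused sample column. As tools the submitters' processing notes list DESeq2 1.12.4, RSEM 1.2.29 and Bowtie2, and as builds GRCh38 and mm10, with no role for any. The transformation was not given in the sources used here, and the median range over the 4 libraries was 0.113 for tested genes and 0.0178 for those below the filter, so changes of low genes may be understated.

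GENCODE M21 (GRCm38) gave symbols for 22357 identifiers, positions and exon lengths. Tests used R 4.3.3 with limma 3.58.1: group only, variance prior with trend, two-sided, Benjamini-Hochberg over 14548 genes with a mean of log2 of 10 or more, threshold 0.05. An exact permutation of 2 against 2 libraries cannot go below 0.333 and was not used. Shared transcript sequence was sought with blastn 2.17.0 (98% identity over 200 bases). The members, the lists and the naming rule (every member by class, with full values for an unadjusted p under 0.05, the TIMPs, Adam10, Adam17 and the 5 highest levels per kb) were chosen with earlier results of these data known. Some further members are given with values because of their role. Alternatives were other filters, scalings, a pseudocount of 10, other variance priors, the replicate block, each library left out and, added later, a threshold of 0.10.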

Additional observations from a re-analysis of the deposited data

How the results depend on the processing

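The number of genes past the threshold, 41, was 1 with no filter, 23 after quantile normalisation, 126 with libraries shifted to the same median, 11 without a trend, 138 with a robust prior and 363 at a threshold of 0.10, and ran from 7 to 194 with single libraries left out. Members past it numbered 0, and were 1 with shifted libraries, 1 with a robust prior (Adamts1, adjusted p = 0.0464 and 0.0434), 4 at 0.10 and 0 to 2 with single libraries left out. Past it in the lists of substrates, partners, inhibitors and metalloproteinases were 2 genes, which became 0 with no filter, without a trend and with a robust prior, and 1 with a filter at log2 of 50, after quantile normalisation and with a pseudocount of 10, and ran from 0 to 6 with single libraries left out. Members without overlap, 21, ran from 27 to 33 with single libraries left out, where a group holds 1 value. With 1 library in a group, that library is assumed to vary like the others.

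The labels do not say whether replicate numbers mark pairs. Replicate differences of the groups correlated at 0.428 over genes, with 2 pairs, and the source of this was not tested. With the replicate block 1374 genes, 15 members (Adamts1 at an adjusted p of 0.000171) and 18 listed genes passed.

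The 12 members at an unadjusted p under 0.05 kept their sign under all 12 alternatives. Their groups do not overlap, so leaving out a library could not turn a sign. Other filters, variance priors and the block leave a change as it is. Among the others the sign turned with a library left out in 9: the change ranged from -0.166 to 0.033 for Adam9, -0.168 to 0.012 for Adam12, -0.125 to 0.083 for Adam10, -0.093 to 0.065 for Adamts10, -0.052 to 0.060 for Adamtsl5, -0.101 to 0.030 for Adamts3, -0.035 to 0.028 for Adam5, -0.196 to 0.006 for Adamts19 and -0.022 to 0.000 for Adam1a. The cause was not tested. With 2 libraries a group and unknown depth, small changes cannot be resolved.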
